A study of Pimephales promelas with 191 samples.

Results

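The step to 24 h of the experiment, seen against 6 h, was read as a difference between liver transcriptomes. The livers were those of males, adult by the labels, of the fathead minnow (Pimephales promelas), a North American cyprinid used in water toxicology. Libraries were assigned by their labelled collection time: all 47 libraries collected at 24 h were set against all 48 collected at 6 h. These are 95 libraries, and the series holds 96 others, of 48 h and 96 h. At both times the fish were exposed to 41 µg/L metformin (12 libraries at 24 h and 12 at 6 h), to 100 µg/L guanylurea (11 and 12), or to the mixture of 41 µg/L metformin and 100 µg/L guanylurea (12 and 12). The control fish (12 and 12) are described in the labels only as a control group. The libraries of 48 h and 96 h entered no test of this step, except 1 alternative fit of all libraries, and are used below to show levels later on. Strain, age in days, tank and clock hour of collection are not given in the labels, nor whether each library is a separate fish, so a p-value here measures spread among libraries, which may be technical.

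The liver of a fish stores and releases fuel, makes plasma proteins and clears foreign compounds, and many of its transcripts follow the daily round of light and feeding. Metformin lowers glucose output of the mammalian liver, and guanylurea is what microbes leave of it in sewage treatment. Collections at 24, 48 and 96 h lie whole days apart, whereas 6 h lies at another hour of the day than 24 h. Hours of exposure, hours since handling, time of day and collection occasion therefore change together between 6 and 24 h and cannot be told apart. The same holds for cell composition: in bulk liver, fewer cells of a type and less RNA per cell cannot be told apart.

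Totals per library ran from 12.7 to 25.6 M estimated counts (M, mega) at 24 h and from 12.8 to 22.5 M at 6 h, and the averages of 19.3 ± 2.11 M and 18.6 ± 2.3 M (SD, n = 47 and 48) did not differ beyond the spread (permutation within treatment, two-sided, adjusted p = 0.201 over 4 measures). The number of genes with a count did differ, at 19927 ± 335 at 24 h and 19702 ± 320 at 6 h (SD, n = 47 and 48; adjusted p = 0.00464, same test). The 10 most abundant genes held 30.2% ± 3.18 of counts at 24 h and 29.3% ± 3.57 at 6 h (SD, n = 47 and 48; adjusted p = 0.239). One library fell below the limit set for agreement with its group, the metformin library numbered 3 of 24 h, at a median correlation of 0.877, where the next lowest library had 0.88 and the median of the 95 was 0.919. The identifiers of the tables match no gene name (0 of 26150), so the defining markers of liver or of other cell types could not be read. For the same reason genes are described below by level, size and behaviour, and 4 identifiers are printed.

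Liver expression at 24 h differed from that at 6 h in many genes, most of them by little. A gene was called when its adjusted p was under 0.05 by the quasi-likelihood test of edgeR, with treatment as a covariate. Of 17211 genes tested, 1303 changed (7.57%), of which 473 were higher at 24 h (2.75%) and 830 were lower (4.82%). The median size of a called change was 0.31 on the log2 scale. The higher genes stood at a median log2 fold change of 0.35 (quartiles 0.25 to 0.50) and the lower genes at −0.29 (quartiles −0.41 to −0.22). Changes under 0.25 log2 made up 406 of the 1303 calls, and 198 reached 1.5-fold, 60 reached 2-fold and 6 reached 4-fold. When the test was set against a change of 1.2-fold instead of no change, 49 genes passed, 13 higher and 36 lower. Without that metformin library of low agreement, 1553 genes passed, 524 higher and 1029 lower, and these included 1266 of the 1303.

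**Figure D1:**
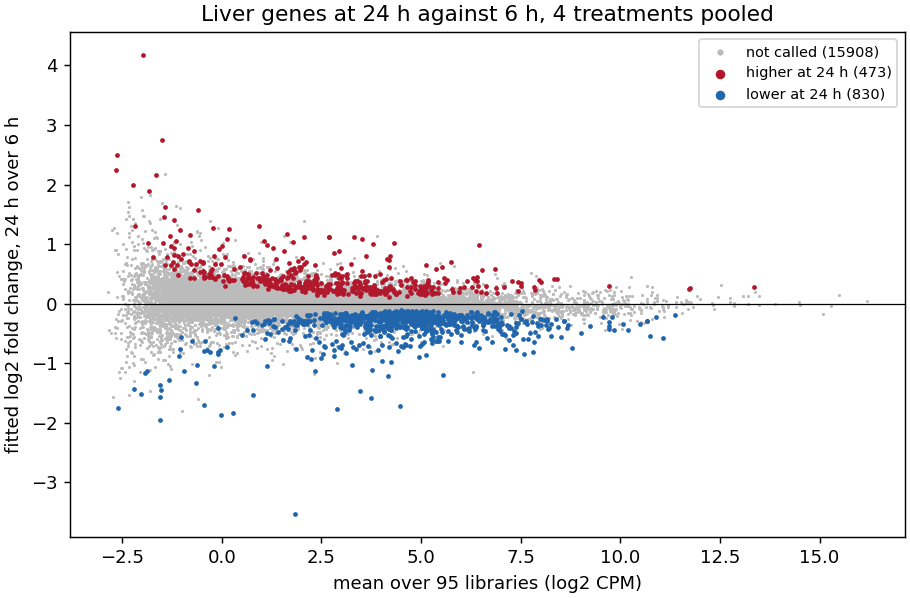
Each point is 1 of the 17211 genes tested, with its mean over the 95 libraries (log2 CPM) on the x axis and its fitted log2 fold change, 24 h over 6 h, on the y axis. The 473 higher genes are red and the 830 lower genes blue: red points reach into the low left part of the range, and blue points crowd at middle and high levels.

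The 4 genes printed by identifier are the 2 of smallest p in each direction among called genes with a mean of at least 1 CPM (counts scaled to a common library total) and the same sign in all treatments. FMg004719 had the smallest p of all genes. Its lowest, median and highest CPM at 24 h and at 6 h were 20.9, 27.0 and 36.1 against 28.8, 39.3 and 58.4 with metformin. With guanylurea they were 21.2, 24.0 and 30.2 at 24 h against 23.2, 42.3 and 56.1 at 6 h. With the mixture they were 19.4, 27.9 and 32.9 at 24 h against 29.8, 41.1 and 56.1 at 6 h, and in controls 18.5, 26.7 and 30.1 at 24 h against 27.8, 36.2 and 67.2 at 6 h. The ranges of the times overlapped in every treatment, but each of the 47 libraries of 24 h lay below the 6 h median of its own treatment. In 96.1% of the pairs of a 24 h and a 6 h library of the same treatment the 24 h library was the lower. In edgeR's fit it changed by −0.68 log2 (SE 0.0581) at an adjusted p of 1.38e-15, or to 0.626 times the 6 h level. Collection time held 58.8% of the spread of its log2 CPM that treatment left.

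FMg003560 fell by a like amount at a higher level. With metformin its lowest, median and highest CPM were 44.8, 68.7 and 83.4 at 24 h against 69.5, 98.8 and 112.6 at 6 h. With guanylurea they were 45.8, 57.4 and 89.7 at 24 h against 69.8, 104.1 and 166.1 at 6 h. In the mixture group they were 43.9, 61.6 and 112.4 at 24 h against 88.5, 114.8 and 155.0 at 6 h. Controls held 42.0, 61.3 and 102.1 at 24 h against 54.6, 113.1 and 144.7 at 6 h. All 47 libraries of 24 h again lay below the 6 h median of their treatment, and the ranges overlapped in each treatment. In edgeR's fit it changed by −0.69 log2 (SE 0.0704) at an adjusted p of 3.47e-12.

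FMg008540 was the higher gene of smallest p, with a change of 0.61 log2 (SE 0.072) at an adjusted p of 9.32e-10 by edgeR. Its lowest, median and highest CPM with metformin were 34.0, 58.8 and 77.5 at 24 h against 29.7, 39.9 and 49.9 at 6 h. Guanylurea libraries held 39.2, 55.8 and 73.4 at 24 h against 20.5, 34.8 and 51.5 at 6 h. Mixture libraries held 55.1, 64.7 and 84.5 at 24 h against 22.6, 41.3 and 66.1 at 6 h, and controls 35.6, 57.2 and 86.3 at 24 h against 24.7, 37.8 and 49.0 at 6 h. Libraries of 24 h above the 6 h median of their treatment numbered 9 of 12 with metformin, 11 of 11 with guanylurea, 12 of 12 with the mixture and 11 of 12 in controls. Among the 24 h groups the metformin libraries were the most scattered for this gene, with an SD of 0.46 log2 at 24 h against 0.22 at 6 h.

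FMg012992 rose by 0.58 log2 (SE 0.0697) at an adjusted p of 1.5e-09 by edgeR, to 1.49 times the 6 h level. It held 35.8, 45.1 and 62.7 CPM (lowest, median, highest) at 24 h with metformin against 22.9, 31.4 and 53.6 at 6 h, and 36.7, 52.6 and 83.7 at 24 h with guanylurea against 23.4, 40.4 and 58.8 at 6 h. In the mixture it held 40.4, 53.2 and 61.1 at 24 h against 24.6, 29.0 and 52.8 at 6 h, and in controls 41.7, 59.0 and 64.0 at 24 h against 21.8, 31.2 and 63.7 at 6 h. Of the 24 h libraries, 12 of 12 with metformin, 10 of 11 with guanylurea, 12 of 12 with the mixture and 12 of 12 in controls lay above the 6 h median of their treatment. In controls the ranges nearly coincided at their top, since 1 control library of 6 h held 63.7 CPM.

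The 4 genes parted ways after 24 h. FMg008540 averaged 42.1 CPM with metformin, 41.3 with guanylurea, 41.4 with the mixture and 37.9 in controls at 96 h (SD 15.1, 15.8, 13.9 and 11.6, n = 12 each), near its 6 h averages of 39.1, 35.4, 40.7 and 38.5. FMg012992 stood at 55.9, 56.9, 58.5 and 53.9 CPM at 96 h in the same order of treatments, and FMg004719 at 29.8, 26.1, 27.4 and 29.4 CPM. Both thus stayed on the side of their 24 h averages, which for FMg012992 were 47.5, 53.8, 50.9 and 55.8 CPM and for FMg004719 26.6, 25, 27.4 and 25.4 CPM. FMg003560 held 68.4, 62.1, 72.6 and 70.0 CPM at 96 h, against 66.8, 60.5, 65.9 and 66.5 CPM at 24 h. These later levels are given as values, with no test.

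**Figure D2:**
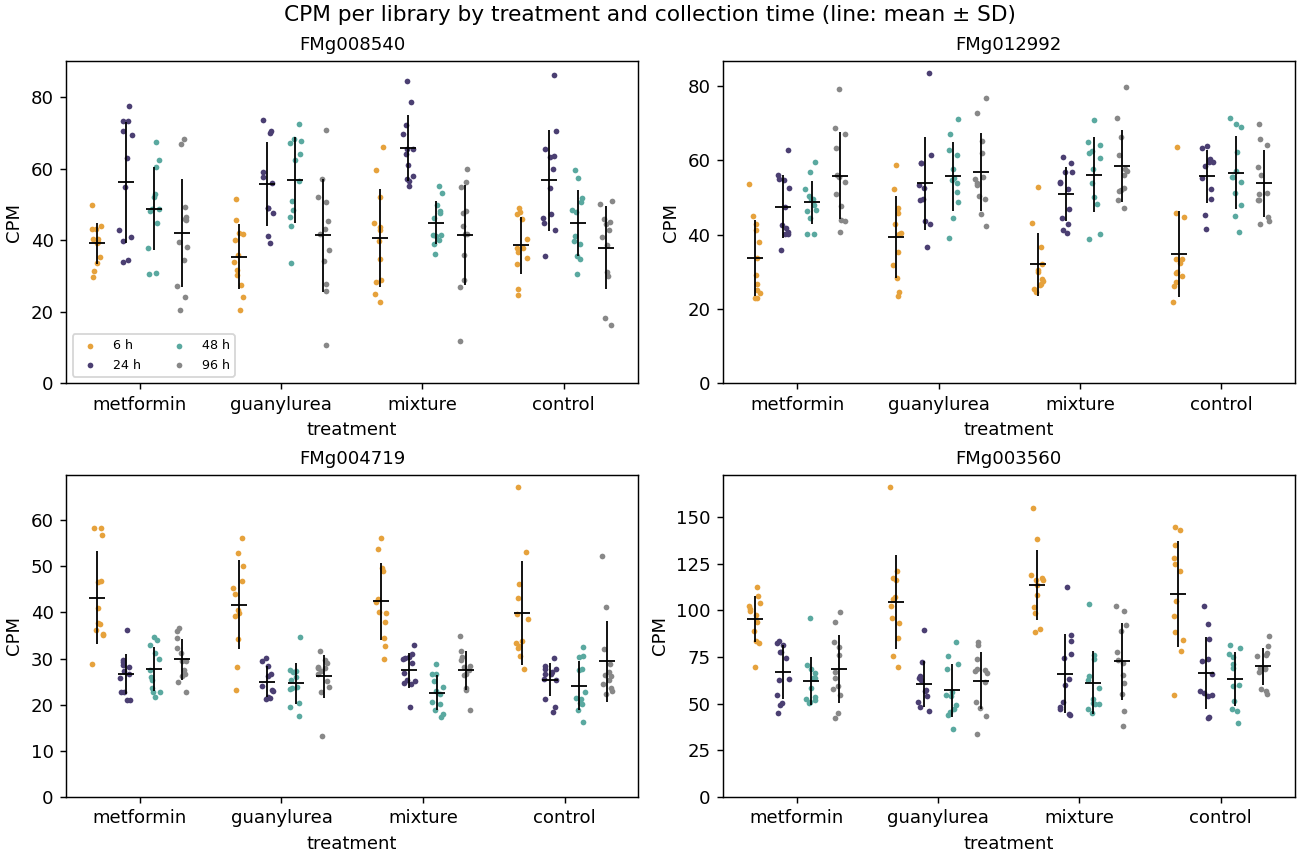
CPM of the 4 genes in every library (points), by treatment and collection time, with the mean and SD of each group of 11 or 12 libraries (line and bar). FMg008540 peaks at 24 h, or with guanylurea at 24 and 48 h, and lies near its 6 h level at 96 h, while FMg012992 stays high and FMg004719 and FMg003560 stay low after 6 h.

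The genes ranked 3 to 12 by the same rule followed. The 10 higher genes changed by 0.15 to 0.72 log2 at means of 1.23 to 357 CPM, and 78.0% to 87.1% of same-treatment pairs had the 24 h library on top. The 10 lower genes changed by −0.84 to −0.40 at means of 10.7 to 247 CPM, with the 24 h library lower in 85.3% to 91.8% of pairs. Over all calls the median was 69.9% of pairs for the 473 higher and 71.3% for the 830 lower genes, so the libraries of the times overlapped widely for a typical called gene. At 90% of pairs or more stood 0 higher and 7 lower genes. Collection time held a median of 11.8% of the spread left by treatment in the higher genes, 13.4% in the lower genes and 1.23% over all genes tested. The first of these values belong to genes selected on the same libraries.

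Among called genes, large changes were found mainly in rare transcripts, which the cut on p favours. The median standard error was 0.308 log2 in the lowest decile of mean level, against 0.0803 in the highest. Small changes of rare transcripts could therefore seldom be called. The 60 genes called at 2-fold or more had a median of 1.51 CPM and a median within-group SD of 1.37 log2, against 17.4 CPM and 0.38 log2 for the 1243 called under 2-fold. In 6 of the 60 a single library held over 25% of the counts of all 95, which occurred in 0 of the 1243. The 24 h library stood on the called side in fewer than 60% of pairs for 15 of the 60 and for 2 of the 1243.

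The genes lower at 24 h were the more abundant. Their median level was 4.49 log2 CPM, against 2.45 for the higher genes and 2.34 for all genes tested. Above a mean of 100 CPM lay 113 of the 830 lower genes (13.6%) and 23 of the 473 higher genes (4.86%), beside 5.32% of all genes tested. Below a mean of 1 CPM lay 21 lower genes (2.53%) and 58 higher genes (12.3%), beside 18.6% of all. Summed over genes, the 830 lower genes took 5.16% ± 0.590 of a library's counts at 24 h and 6.56% ± 0.798 at 6 h, and the 473 higher genes 3.01% ± 0.390 at 24 h and 2.43% ± 0.380 at 6 h (SD, n = 47 and 48). These sums follow from how the genes were selected.

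Genes were split by mean level into 10 deciles, numbered up from the least abundant. They were called lower in 0.755% of decile 1 and in 12.5% of decile 10. Called higher were 1.68% of decile 1, a maximum of 3.83% in decile 5 and 2.44% of decile 10. The higher genes made up 69.0% of calls in decile 1 and 16.3% in decile 10. Precision moved along with abundance: the median standard error of the log2 fold change was 0.308 in decile 1, 0.102 in decile 5 and 0.0723 in decile 9. Of the 100 most abundant genes 11 were called (11%, 3 higher and 8 lower), and of the top 500 11.4%, beside 14.9% of decile 10. Of the 10 most abundant, which held 29.4% of counts on average, 0 were called, too few genes to read a share from.

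The tilt with abundance reached beyond the called genes. Over all genes of decile 1 the median fitted change was 0.10 log2, and over all of decile 10 it was −0.06. Each treatment showed it in its own libraries: the median difference between 24 h and 6 h in deciles 1 and 10 was 0.03 and −0.06 with metformin, 0.06 and −0.09 with guanylurea, 0.11 and −0.08 with the mixture, and 0.07 and −0.01 in controls. A tilt per library was taken as the median of deciles 1 to 4 minus that of deciles 9 and 10, each gene first centred on its mean, a measure chosen after the trend was seen. It averaged 0.078 ± 0.120 at 24 h and −0.0444 ± 0.118 at 6 h (SD, n = 47 and 48; permutation within treatment, two-sided, p = 1e-05, the smallest these draws can give). At 48 and 96 h it averaged 0.148 ± 0.168 and 0.0855 ± 0.141 (SD, n = 48 each). The number of genes with a count per library also was higher at 24 h, as given above, and its part in the tilt was not tested.

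The scaling bore on which direction was the more abundant. After cyclic loess, which removes level-dependent shifts between libraries, a limma trend test called 1154 genes, 509 higher and 645 lower, and their median levels were 3.97 and 3.91 log2 CPM. In decile 10 it then called 6.39% higher and 6.86% lower. The same limma test without loess called 548 higher and 781 lower genes at medians of 2.43 and 4.49 log2 CPM, much as edgeR did. Of the edgeR calls, 324 of 473 higher genes (68.5%) and 562 of 830 lower genes (67.7%) passed in the same direction after loess, and 0 changed sign. The direction of single genes was thus kept, while the contrast in level between higher and lower genes was seen with 1 scaling factor per library and not after loess. Since loess removes such shifts by design, the loss of the contrast was to be foreseen. It cannot tell a shift of scaling from a shift in the livers. Both limma fits were added after the trend was seen.

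**Figure D3:**
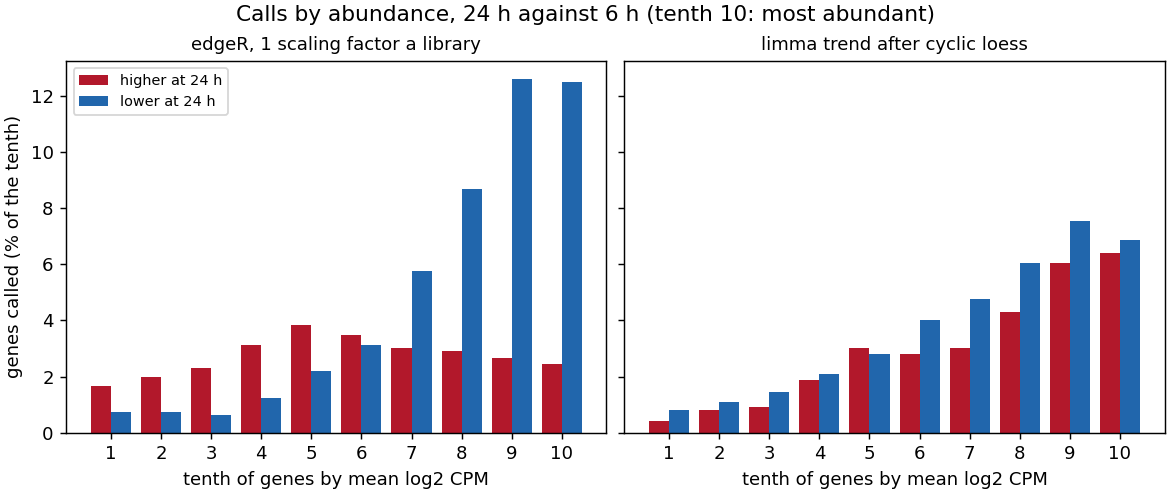
Percent of the genes in each decile of mean level that were called higher (red) or lower (blue) at 24 h, with edgeR and 1 scaling factor per library (left) and with limma trend after cyclic loess (right). On the left the blue bars climb to 12.6% and 12.5% in deciles 9 and 10 while the red bars stay under 4%; on the right both colours climb together.

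Few genes were called as changing by a different amount in the 4 treatments. An F test of edgeR on the 3 interaction terms called 22 of 17211 genes (0.128%), and 885 genes had an unadjusted p under 0.05 where 5% of the tested genes would be 860.6. Among the 1303 genes of the pooled step, 1 was called for interaction and 3.91% had an unadjusted interaction p under 0.05, beside 5.14% of all genes. Compared with the step in controls, the step differed in 11 genes with metformin (0.0639%; 10 higher, 0.0581%, and 1 lower, 0.00581%). It differed in 4 with guanylurea (all higher, 0.0232%) and in 0 with the mixture by edgeR. Without adjustment, 1305, 1395 and 574 genes passed 0.05, beside the same 860.6 at 5% of the tested genes. These comparisons share the control libraries. Limma voom called 0 genes in the interaction test (636 at an unadjusted p under 0.05), and DESeq2 called 20, of which 4 were among the 22. The 95% interval of the difference from the control step lay within 2-fold for 78.8% of the 1303 genes in the metformin groups and 77.1% in the guanylurea groups. Over all genes tested the shares were 57.0% and 56.0%. The interval lay within 1.5-fold for 45.4% and 43.6% of the 1303, and in the mixture groups for 50.7%, beside 26.6%, 26.0% and 30.5% of all genes. In the pooled test the 1303 genes had a median standard error of 0.0798 log2, against 0.110 over all genes. Differences of moderate size in single genes are therefore within what these libraries allow.

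The 22 interaction genes were mostly carried by few libraries. Their median level was 1.81 CPM, and the highest library held a median of 49.1% of a gene's counts over the 95 libraries, beside 2.46% over all genes tested. The treatment whose step lay farthest from the median of the 4 was guanylurea in 12 of the 22 genes, the control in 8, metformin in 2 and the mixture in 0. In most of those guanylurea genes the metformin step was the lowest of the 4. The same tally was not made over all genes tested, so it does not single out a treatment.

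Each treatment alone showed the step with less precision. Tested singly in the shared fit, 4 genes passed with metformin (0.0232%), of which 1 was higher (0.00581%) and 3 lower (0.0174%). With guanylurea 58 passed (0.337%), 25 higher (0.145%) and 33 lower (0.192%). With the mixture 18 passed (0.105%), 7 higher (0.0407%) and 11 lower (0.0639%), and in controls 100 (0.581%), 17 higher (0.0988%) and 83 lower (0.482%). Before adjustment, 1396, 1663, 1538 and 2274 genes passed 0.05 in the same order of treatments. These counts do not show that the treatments differ, and the test of the difference is the one above. The median standard error of a single step was 0.219 log2 with metformin, 0.224 with guanylurea, 0.219 with the mixture and 0.219 in controls, against 0.110 in the pooled test.

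Genes called in 3 treatments mostly lay on the same side in the fourth, whose libraries had no part in the call. When metformin was left out, 333 genes were higher and 693 lower in the other 3 (6.06% of genes tested, 1.97% and 4.09%), and with metformin 271 of the 333 (81.4%) and 647 of the 693 (93.4%) lay on the same side. The median change there was 0.19 for the higher and −0.20 for the lower genes. With guanylurea left out, 4.53% of genes were called (1.62% higher and 2.91% lower), and 223 of 271 higher genes (82.3%, median 0.17) and 461 of 487 lower genes (94.7%, median −0.27) kept their direction. Without the mixture 3.35% were called (0.891% higher and 2.46% lower), and without the controls 4.67% (1.7% higher and 2.97% lower). In the left-out mixture the counts were 143 of 150 (95.3%, median 0.30) and 405 of 414 (97.8%, median −0.29), and in left-out controls 234 of 287 (81.5%, median 0.20) and 451 of 502 (89.8%, median −0.25). Over all genes tested, called or not, the direction was shared by between 59.6% and 69.4%, and the median change of all genes was 0.01 in every left-out treatment. This background is not matched for level. Of all genes in decile 10, 34.7% lay above 0 with metformin, 34.0% with guanylurea, 32.1% with the mixture and 47.3% in controls. The part of the tilt with abundance in the shares of called genes was not tested.

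By medians, the lower genes kept more of their size in the left-out treatment than the higher ones, a difference that was not tested. In the 3 treatments that chose them, the lower genes had medians of −0.34 to −0.32, and in the left-out treatment −0.29 to −0.20. The higher genes had medians of 0.40 to 0.42 where they were chosen, and of 0.17 to 0.30 where they were not. Selection by itself overstates the first value of each pair. The measures also differ: the first values are fitted log2 fold changes and the second are differences between mean log2 CPM. The latter understate changes of rare transcripts, and the higher genes of the pooled test were the rarer. For the 473 higher genes of the pooled test, however, the median was 0.35 by the fit and 0.35 by the difference between means. For the 830 lower genes it was −0.29 and −0.28. The part of the measure in the contrast was not tested. At an unadjusted p under 0.05 in the left-out treatment alone, the lower genes passed in the called direction in 27.7% with metformin, 48.7% with guanylurea, 59.2% with the mixture and 49.2% in controls, where 3.74%, 5.59%, 4.59% and 8.02% of all genes did. For the higher genes the shares were 25.2%, 17.3%, 40.7% and 19.9%, beside 4.37%, 4.07%, 4.35% and 5.19% of all genes.

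**Figure D4:**
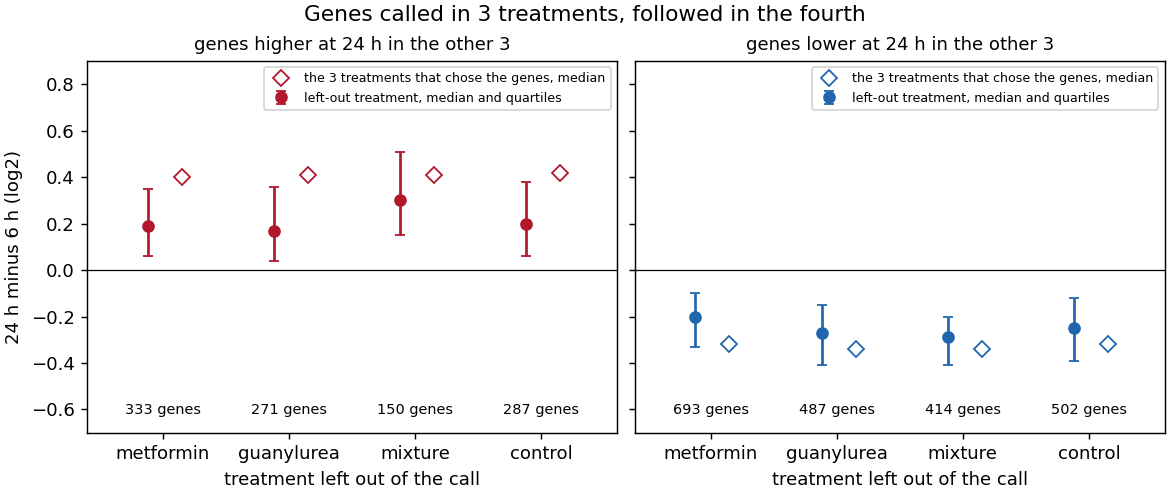
Change at 24 h minus 6 h (log2) of genes called in 3 treatments, shown in the treatment left out (filled points, median and quartiles over genes) and in the 3 that chose them (open diamonds, median fitted log2 fold change). All 8 left-out medians lie on the called side of 0, from 0.17 to 0.30 for higher genes and from −0.29 to −0.20 for lower genes, and all lie nearer to 0 than their diamonds. The filled points are differences between mean log2 CPM, a measure unlike that of the diamonds.

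Genes called in a single treatment were also followed in the other 3. Of the 83 genes lower in controls, 74 were lower on average in the exposed groups, and 43 were called lower in the fit of those groups alone (1 was not tested there), where 2.97% of all genes were. Of the 33 genes lower with guanylurea, 32 were lower in the other treatments and 24 were called there (background 2.91%). Of the 17 genes higher in controls, 16 were higher in the exposed groups and 8 were called there (background 1.7%). Of the 25 genes higher with guanylurea, 11 lay above 0 in the other treatments, with a median of −0.01. Of those 25, 4 were not tested in the fit of the other treatments and 2 were called higher there (background 1.62%), and their median level was 1.67 CPM. Their median change with guanylurea was 3.04 log2 by the fit and 1.01 by the difference between means. Higher calls with guanylurea varied by setting. They numbered 3 with the replicate number as a block, 7 with limma voom, 37 with DESeq2 and 104 without a filter. Lower calls (33) numbered 29, 41, 55 and 49 in the same order. With the mixture, 9 of the 11 lower genes were called lower in the other 3 (background 2.46%), and 3 of the 7 higher ones were called higher (0.891%). With metformin, 2 of the 3 lower genes were called lower in the other treatments (background 4.09%) and the 1 higher gene was not called (1.97%).

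Across all 17211 genes the steps of different treatments, which share no library, were correlated to a modest degree at most. The control step shared its sign with the metformin step in 54.0% of genes and with the guanylurea step in 55.0%. For the other pairs the share was between 61.5% and 64.8%. Pearson's r of the log2 differences was 0.283 for the metformin and guanylurea steps. The mixture step had an r of 0.169 with the metformin step and of 0.261 with that of guanylurea. With the control step it was 0.0821 for metformin, 0.0891 for guanylurea and 0.357 for the mixture. Spearman's rho gave 0.347, 0.253, 0.316, 0.102, 0.118 and 0.378 in the same order. The likeness depended on level: the median r of the 6 pairs was 0.0478 in decile 1, 0.214 in decile 5 and 0.438 in decile 10. These are descriptions across genes, which are not independent of each other, and the tilt with abundance is part of the values over all genes.

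The step was also followed library by library. For each treatment, the mean log2 CPM of the lower genes chosen in the other 3 was taken from that of the higher genes and set to 0 at the 6 h mean. The score rests on 1 scaling factor per library. In the pooled test the lower genes were the more abundant, so the tilt with abundance can enter the score, and its part was not tested. The score at 24 h averaged 0.43 ± 0.23 with metformin, 0.52 ± 0.37 with guanylurea, 0.70 ± 0.23 with the mixture and 0.52 ± 0.24 in controls, where the SD at 6 h was 0.18, 0.27, 0.25 and 0.45 (n = 12 each, 11 for guanylurea at 24 h). Libraries of 24 h above the highest 6 h library of their treatment numbered 10 of 12 with metformin, 8 of 11 with guanylurea, 12 of 12 with the mixture and 4 of 12 in controls. The mixture groups did not overlap and the others did. The control libraries of 6 h were the widest of the 6 h groups, from −0.73 to 0.62, so that their upper end reached into the 24 h range of 0.16 to 0.93.

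Later levels stayed on the 24 h side by median, less so for the higher genes. In treatments that did not choose the genes, the lower ones stood at 48 h at medians of −0.19 with metformin, −0.28 with guanylurea, −0.32 with the mixture and −0.31 in controls, each against its own 6 h libraries. At 96 h the medians were −0.28, −0.22, −0.32 and −0.31. The higher genes stood at 0.18, 0.19, 0.21 and 0.20 at 48 h, and at 0.16, 0.09, 0.11 and 0.14 at 96 h. By 96 h the share of higher genes still above their 6 h mean was 73.0%, 66.4%, 66.0% and 70.0%, and that of lower genes still below it was 87.6%, 81.1%, 84.3% and 84.1%. The values at 24, 48 and 96 h share the 6 h libraries of the treatment, which contributes to their likeness. Medians over all genes tested were 0.01 or 0.02 at each time. They are not matched for level, and the part of the tilt with abundance in the medians above was not tested. Among the 1303 genes of the pooled test, which the 24 h and 6 h libraries chose, 284 of the 473 higher genes and 633 of the 830 lower genes lay nearer at 96 h to their 24 h than to their 6 h level.

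**Figure D5:**
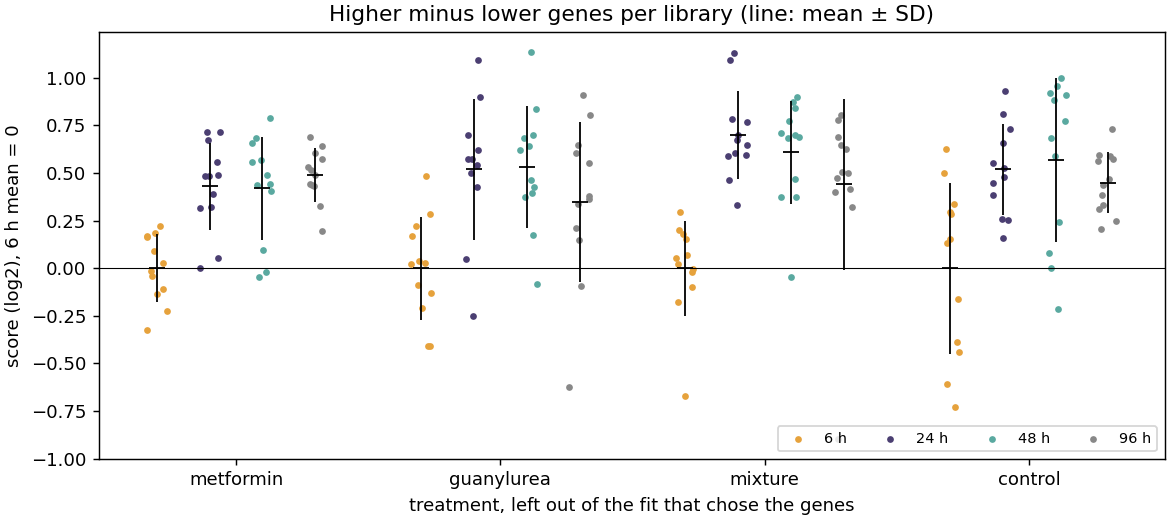
Score per library (points; higher minus lower genes, log2, 6 h mean set to 0) by treatment and collection time, with the mean and SD of each group (line and bar), for genes chosen without the treatment shown. In each treatment the means of 24, 48 and 96 h lie between 0.35 and 0.70, above the 6 h mean of 0. The tilt with abundance can enter this score.

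The called genes also varied together from library to library within groups. In the 96 libraries of 48 and 96 h, which did not choose them, deviations from the group means had a mean pairwise correlation of 0.103 among the lower genes and 0.0721 among the higher genes, and of −0.0683 between a higher and a lower gene. Over all genes tested it was 0.000643, and within the genes of deciles 9 and 10 it was 0.0235 and 0.0475. In the libraries of 6 and 24 h the values were 0.120, 0.0614 and −0.0635. These correlations are small and are given as descriptions, over genes that share libraries and depth. The lower genes were the more abundant, so the tilt with abundance can enter these values, and its part was not tested. The backgrounds lie within deciles, and for the value between a higher and a lower gene no background between deciles was taken.

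Few libraries carried the genes seen at one time alone. A count at 24 h and none at 6 h occurred in 405 of 26150 genes, of which the most widely seen had a count in 9 of 47 libraries. A count at 6 h and none at 24 h occurred in 274 genes, in at most 8 of 48 libraries. At these depths a rare transcript is missed by chance in many libraries. The low-count filter left such genes out of the main fit, while the alternative without a filter tested genes of any count.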

How the data were processed

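Liver RNA of male fathead minnows was sequenced from stranded mRNA libraries, per the labels' protocols. The authors deposited estimated counts (expected counts) per gene and per transcript as whole numbers (0 values not whole), not scaled for depth. The submitters' processing notes name RSEM 1.3.1, Bowtie2 2.3.5 and bcl2fastq 1.8.4. RSEM divides reads shared by near-identical genes by an estimate, so such genes are uncertain. The sources used here do not state the genome build, the annotation or the strand setting. Of 26150 gene and 47578 transcript identifiers, 0 matched the RefSeq gene table (fPimPro1.hap1.1), so lists of clock, liver, stress and cell type genes could not be tested and no sequence is printed.

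Rounded counts were tested with edgeR 4.0.16 in R 4.3.3 (filterByExpr, minimum count 10, minimum total count 15; TMM scaling; robust quasi-likelihood fit) with treatment as an additive covariate. Interaction and single treatments used a mean per group. Unless another tool is named, each adjusted p of a gene comes from this edgeR fit, adjusted by Benjamini and Hochberg across the genes tested, and the procedure was tested on simulated data. The 4 genes printed are the 2 of smallest p in each direction among called genes with a mean of at least 1 CPM and the same sign in all treatments. Log2 CPM (prior count 2) and CPM used TMM factors of all libraries of the series, and steps of single treatments outside the fits are differences between mean log2 CPM, which understate changes of rare transcripts. Permutation tests drew 100000 relabelings of time within treatment. Libraries of low agreement lay over 5 median absolute deviations below the median. The members and lists were chosen with earlier results of these data known. Alternatives were DESeq2 1.42.0, limma 3.58.1, other scaling, no filter, the transcript table, a replicate block, fewer or all libraries, and other thresholds. Same-numbered libraries of 24 h and 6 h deviated together with a correlation over 0.1 in 4 of 12 metformin, 2 of 11 guanylurea, 4 of 12 mixture and 1 of 12 control pairs. In that order their median correlations were 0.0735, 0.0229, 0.0446 and 0.0198, above the −0.00121, −0.0245, 0.000151 and −0.0125 of other numbers. The numbers were not taken to pair libraries in the main fits, and whether they carry a small shared effect was not tested. All pairs of libraries of a group differed beyond sampling noise (lowest chi-square per degree of freedom 36.7).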

Additional observations from a re-analysis of the deposited data

Results flagged for a closer look

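The change between 6 and 24 h differed between the 4 treatments in 22 genes (0.128% of those tested) by an F test on the interaction terms (edgeR). These are flagged since a test of the difference was passed, though most were carried by few libraries. With metformin the change differed from that in controls in 11 genes (0.0639%), and with guanylurea in 4 (0.0232%). The replicate number as a block left 0 of the 22, and so did limma voom. In 1 of the 22 genes the pooled step was called too, and a single library held 93.0% of that gene's counts over the libraries compared.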

How the results depend on the processing

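The 4 printed genes kept sign and call under each of 14 other settings, from −0.69 to −0.61 for FMg004719, −0.75 to −0.65 for FMg003560, 0.58 to 0.66 for FMg008540 and 0.55 to 0.66 for FMg012992. The pooled count of 1303 stayed within 1.5-fold with DESeq2, limma, other scaling, no filter, the replicate block (1308 genes) and all libraries of the series. Genes tested numbered 17211 in the main fit, 19448 with DESeq2, 25350 with no filter and 18145 with all libraries. The transcript table gave 925 calls of 24732 transcripts, a count of another unit. The pooled count of genes was 49 against a fold of 1.2 and 2015 at an adjusted p under 0.10. It was 564, 758, 789 and 1026 without the mixture, guanylurea, the controls and metformin. These 4 fits hold fewer libraries than the main fit and are of like size among themselves. Why their counts differ was not tested. Of the 1303 genes, 337 were called in all 4 of these fits and 135 in 0 of them. For the interaction (22) the counts were 121 without a filter, 60 in all libraries, 46 for transcripts, and 0 with the replicate block (824 at an unadjusted p under 0.05) and limma voom. For controls (100) they were 248 with DESeq2, 37 with limma voom, 48 for transcripts and 270 at 0.10. For metformin (4) they were 21 with DESeq2, 1 with limma voom and without the low-agreement library, 12 without a filter, 13 in all libraries and 2 with the replicate block. For guanylurea (58) they were 92 with DESeq2, 153 without a filter, 32 with the replicate block and 88 at 0.10. For the mixture (18) they were 34 with DESeq2, 11 for transcripts and 28 at 0.10. The cause was not tested. Agreement with the group was higher at 24 h by 0.00432 (adjusted p = 0.0758, permutation) and by 0.00525 without the low-agreement library (adjusted p = 0.0101, same test). That library is of 24 h and was left out for its low value of this same measure. Its removal raises the 24 h mean by construction, so nothing is read from the smaller p. Genes chosen in 3 treatments kept their direction in the fourth in 90.9% ± 4.41 (SD over 4 treatments). The replicate number is known from the labels only, so calls lost under the block are not read as weaker effects. Metformin, guanylurea, mixture and control libraries correlated best with their own number in 3, 0, 2 and 1 cases. The number that unpaired libraries would give was not worked out, so these counts do not decide whether the numbers pair libraries. Depth limits rare transcripts most: the median standard error of decile 1 was 0.308 log2.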
